A study of Hipposideros armiger and Mus musculus with 20 samples.

Results

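Genes of DNA replication and cell division were followed in adipose tissue of mice and great roundleaf bats kept at 10 °C or 30 °C. They were taken by name from the deposited table: the Mcm, Orc, Rfc, Cenp, Ncap, Aurk and Bub1 symbols, the A, B and E cyclins, Cdc6, Cdc7, Cdc20 and Cdc45, and Birc5, Top2a, Rrm2 and Cdca7l. The table held 14871 genes, and 54 of them carried such a name. A gene entered the tests of a species when it reached 1 FPKM in at least 2 of its libraries, where FPKM counts the fragments read from each kilobase of a transcript, scaled by library size. In mice 49 of the 54 did so, among 10689 genes in all, and in bats 36 did so, among 11025 in all. Both species shared 33 of them, 16 passed in mice only, and Aurkc, Ccne2 and Cenpi passed in bats only. Orc1, at or under 0.66 FPKM in mice and 0.69 FPKM in bats, and Cenpw passed in neither. Mcm4, Mcm6, Cdc6, Cdc20, Ccnb2, Ncapd2 and Cenpe were not analysed here.

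The mice were of the ICR strain, an outbred stock, whose interscapular brown fat, iBAT, was taken along with their subcutaneous white fat, sWAT. The bats, given as wild type, supplied iBAT, intra-abdominal white fat (aWAT) and sWAT. Each depot was sampled after 7 days at 10 °C and after 7 days at 30 °C, and each of the 10 groups held 2 libraries, from a female and a male. The libraries of a group thus came from different animals, and sex and animal cannot be told apart in the spread between them. Beyond the sexes, the labels do not say which libraries came from separate animals, and p-values measure only the spread between these libraries. The labels state no ages, and no genotype of the mice beyond the strain. The cold male sWAT library of mice stood apart in skeletal muscle markers, which summed to 25.6 and 2036 FPKM in the cold female and male, and counts without it are given beside the results.

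A cell that is to divide first loads the Mcm helicase onto origins that the origin recognition complex has marked, a step called licensing. Kinases then fire the origins, the clamp loader (Rfc) places the sliding clamp that holds the polymerases on DNA, and ribonucleotide reductase supplies the building blocks. In mitosis condensins and topoisomerase II compact and untangle the chromosomes, centromere proteins build the kinetochore, and the aurora and Bub kinases watch over its attachment to the spindle. Most of these genes are expressed in waves in cycling cells and are low in cells that rest, such as the mature fat cell. In fat, cycling cells can be progenitors, endothelium, macrophages or lymphocytes. In bulk tissue fewer cells of a type and less RNA per cell cannot be told apart.

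Depth is known only in relative terms: low values put it between 0.951 and 1.11 of the first library in mice and between 0.625 and 1.08 in bats, whose iBAT libraries were the shallowest. All FPKM of a library summed to 263338 to 305098 for mice and to 294103 to 358510 for bats. A bat gene near 0 is not taken as absent, since every value stands under a mouse gene identifier, and levels are not compared between the species. Changes are differences of log2(FPKM + 1), fitted with limma over all libraries of a species and given ± standard error, less the median change of all genes in that comparison. For the cold that median was −0.30 in mouse iBAT, −0.37 in mouse sWAT, −0.10 in bat iBAT, −0.14 in bat aWAT and 0.07 in bat sWAT. The scale understates the change of genes near 1 FPKM. Adjusted p-values are Benjamini and Hochberg's over all genes tested, and a gene is called higher or lower at an adjusted p under 0.05. Those p-values and calls belong to the change before the median was taken off. By the mouse annotation 18 of the 54 genes have exons that overlap another gene, 17 of them on the opposite strand. No source used here says whether counting was by strand, so reads of such pairs cannot be told apart, and the partner's values are given where a result turns on it.

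In mouse sWAT these genes were lower at 10 °C than at 30 °C, and none of them was called higher. The falls came from across the cycle: Birc5, which encodes survivin of the mitotic chromosome passenger complex, Mcm5, Mcm3 and Mcm2 of the replicative helicase, Top2a, which untangles DNA, and Rrm2, the regulated subunit of ribonucleotide reductase. Because 15 of the 49 genes reached 1 FPKM in 2 libraries only through the warm sWAT pair, they had to be lower elsewhere, and counts are read first on the 34 that passed without that pair. Of these 34, 20 were called lower and none higher, against 24.5% lower and 7.81% higher among the 9668 genes that passed in the same way. Their median change was −0.38, beside 0.05 over those genes. With the others included, 34 of 49 were called lower and none higher, against 26.8% lower and 7.06% higher of all genes.

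The helicase genes fell together. Mcm5 was at 4.09 and 1.77 FPKM at 10 °C, in the female and the male, against 16.5 and 11.3 FPKM at 30 °C, a change of −1.60 ± 0.34 (limma adjusted p = 0.0157). Mcm2 was at 4.32 and 2.08 FPKM at 10 °C, against 14.6 and 10.9 FPKM at 30 °C (−1.38 ± 0.28, limma adjusted p = 0.0137). Mcm3 was at 6.23 and 2.83 FPKM at 10 °C, against 17.9 and 15.6 FPKM at 30 °C (−1.39 ± 0.30). For each of these 3 the cold libraries lay below both warm ones, and the cold male below the cold female. Mcm7, of the same ring, was at 3.17 and 2.72 FPKM at 10 °C and 8.14 and 7.42 FPKM at 30 °C (−0.79 ± 0.18). It shares exon sequence with Ap4m1 and Cops6 on the opposite strand, of which neither was called (changes 0.03 and 0.58). Of the 8 licensing genes tested 6 were called lower. Orc5 (−0.20 ± 0.17) and Orc6 (−0.24 ± 0.17), subunits of the origin recognition complex, were among them with smaller changes, and its subunits Orc3 (0.12 ± 0.16) and Orc4 (0.13 ± 0.28) were not called.

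Among genes of firing and the fork, 5 of 10 were called lower, and 4 of the 8 that passed without the warm pair. Rrm2 was at 1.18 and 1.06 FPKM at 10 °C, against 9.08 and 5.13 FPKM at 30 °C (−1.53 ± 0.26, limma adjusted p = 0.0113). The groups did not overlap, and the sexes lay close in the cold and apart in the warm. Cdc7, the kinase that fires origins, was at 1.35 and 1.01 FPKM at 10 °C, against 5.34 and 2.59 FPKM at 30 °C (−0.77 ± 0.31). Rfc2, a small subunit of the clamp loader, was at 15.1 and 11.1 FPKM at 10 °C, against 29.0 and 22.7 FPKM at 30 °C (−0.57 ± 0.19). Its exons overlap those of Lat2 on the opposite strand, an adaptor of immune cells, which was itself called lower, at 7.41 and 1.68 FPKM in the cold and 15.6 and 13.2 FPKM in the warm (−1.33 ± 0.48, limma adjusted p = 0.0377). Rfc1, its large subunit, was at 6.30 and 5.53 FPKM at 10 °C, against 8.26 and 6.86 FPKM at 30 °C (0.06 ± 0.27), and was not called. Rfc4, another subunit, was called lower (−0.34, limma adjusted p = 0.0467), at 3.85 and 4.81 FPKM at 10 °C, against 9.27 and 6.26 FPKM at 30 °C. Its opposite-strand neighbour Eif4a2 was called lower too, at 53.2 and 50.9 FPKM in the cold and 100 and 95.5 FPKM in the warm (−0.53 ± 0.15). The reads of this pair cannot be told apart. The clamp loader thus held called and uncalled subunits. Cdc45, a partner of the helicase at the fork, was not called (0.08 ± 0.29), with groups that overlapped at 1.30 and 2.62 FPKM in the cold and 2.70 and 2.35 FPKM in the warm. Its opposite-strand neighbour Ufd1 was at 23.9 and 23.5 FPKM in the cold and 18.1 and 21.7 FPKM in the warm (0.61 ± 0.13, not called).

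All 5 mitotic kinase and checkpoint genes tested were called lower, though Birc5 alone of them passed without the warm pair. Birc5 was at 2.30 and 1.86 FPKM at 10 °C, against 15.2 and 9.85 FPKM at 30 °C (−1.74 ± 0.28, limma adjusted p = 0.0104). Bub1b, which holds back anaphase until kinetochores are attached, was at 0.68 and 0.56 FPKM at 10 °C, against 4.67 and 2.63 FPKM at 30 °C (−1.12 ± 0.25). Aurkb, the kinase of the complex that holds Birc5, was at 0.65 and 0.41 FPKM at 10 °C, against 2.67 and 2.09 FPKM at 30 °C (−0.77 ± 0.21). In each of the 3 the groups were apart. Ccna2, cyclin A2 of S phase and G2, was at 0.80 and 1.07 FPKM at 10 °C, against 5.74 and 3.82 FPKM at 30 °C (−1.20 ± 0.23, limma adjusted p = 0.012), while its opposite-strand neighbour Exosc9 was not called (0.28). Ccnb1, the mitotic cyclin B1, was at 0.16 and 0.16 FPKM at 10 °C, against 1.17 and 1.32 FPKM at 30 °C (−0.58 ± 0.18, limma adjusted p = 0.0179). Ccna2 and Ccnb1 passed only through the warm pair, so they had to be lower elsewhere. Ccne1, a cyclin of the step into S phase, passed without that pair and was not called. It was at 2.83 and 1.74 FPKM at 10 °C, against 3.65 and 3.38 FPKM at 30 °C (−0.11 ± 0.22).

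Of the 6 genes of chromosome structure 4 were called lower, and 2 of the 4 that passed without the warm pair, which leave out Top2a. Top2a was at 2.09 and 0.85 FPKM at 10 °C, against 9.89 and 6.38 FPKM at 30 °C (−1.54 ± 0.31, limma adjusted p = 0.0137). The condensin subunits Ncaph (−0.70 ± 0.22) and Ncapd3 (−0.50 ± 0.16) were also called lower, and Ncaph2 was not (−0.18 ± 0.28). Of the centromere genes 10 of 13 were lower, and 5 of the 8 that passed without the warm pair. Cenpa, the histone variant that marks the centromere, was at 1.78 and 1.94 FPKM at 10 °C, against 5.94 and 5.78 FPKM at 30 °C (−0.90 ± 0.26). Cenph (−0.90 ± 0.21), Cenps (−0.87 ± 0.27) and Cenpt (−0.63 ± 0.21), which tie the kinetochore to the centromere, were lower too. Cenph passed only through the warm pair. Cenpb, which binds a repeat in centromeric DNA, had the highest FPKM of the set and went against this pattern. It was at 70.7 and 96.1 FPKM at 10 °C, against 58.3 and 70.9 FPKM at 30 °C (0.72 ± 0.21, not called), with groups that overlapped. Cdca7l, a relative of the Myc target Cdca7, was at 3.47 and 2.79 FPKM at 10 °C, against 7.23 and 5.47 FPKM at 30 °C (−0.46 ± 0.21).

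**Figure D1:**
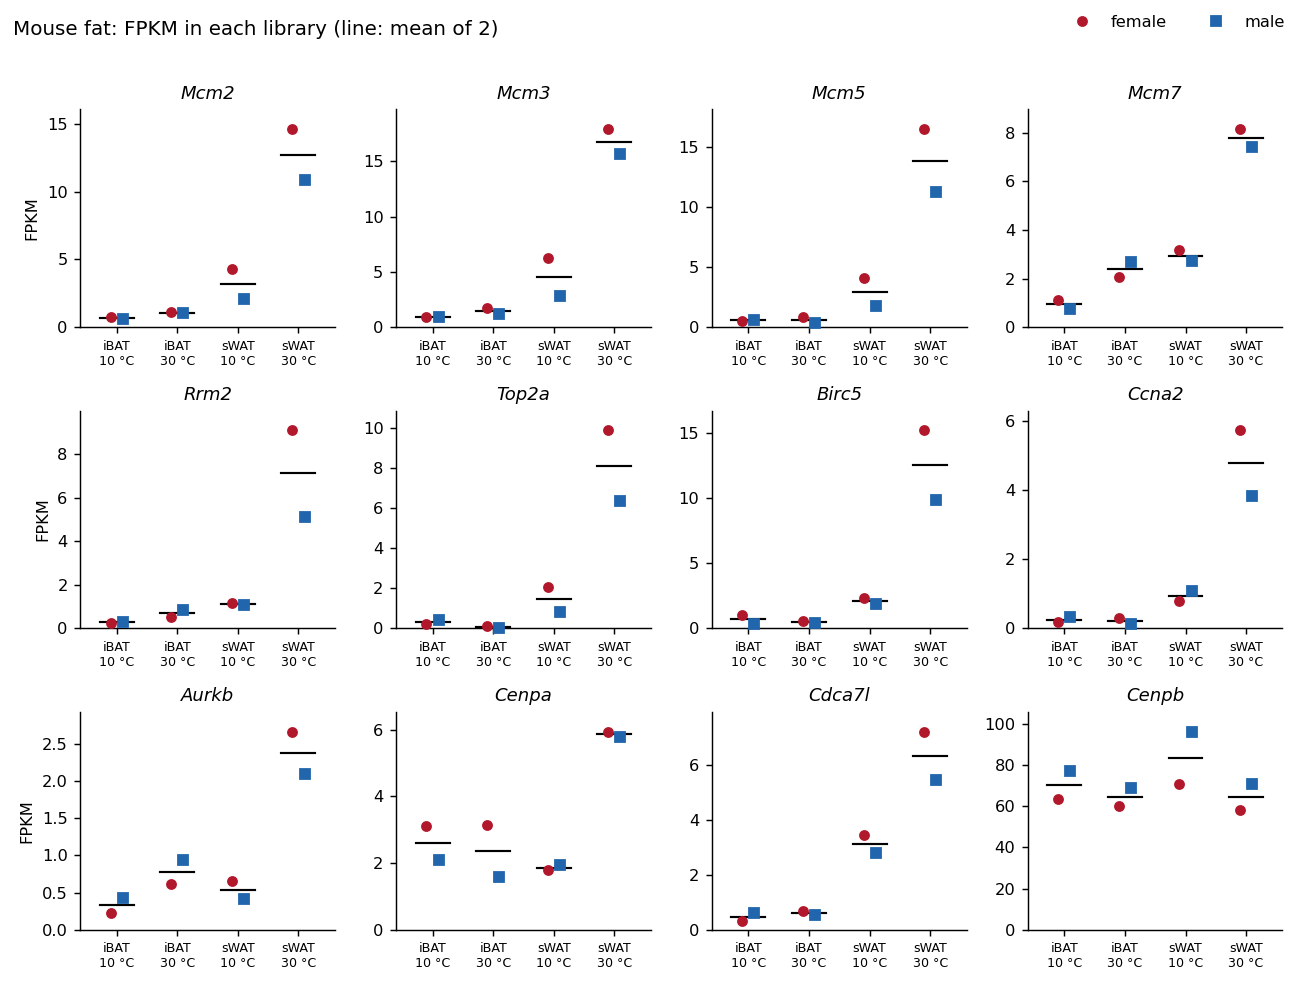
FPKM of 12 genes in the 8 mouse libraries, with circles for females, squares for males and a line at the mean of 2. For Mcm2, Mcm3, Mcm5, Rrm2, Top2a, Birc5 and Ccna2 the warm sWAT pair stands above the cold sWAT pair and both iBAT groups, while Cenpb lies between 58.3 and 96.1 FPKM in every library.

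Of the 34 genes that passed without the warm pair, 29 had both cold libraries below both warm ones, against 52.7% of all such genes, and none had them above, against 17.1%. With the 15 that passed through the warm pair it was 44 of 49, against 54.6% of all genes, and none above, against 15.5%. The calls depended on scaling and on single libraries. The counts of 49 that follow include the 15 genes that passed only through the warm pair. Part of any excess over all genes in those counts may thus come from the filter, which was not tested. With median-ratio scaling 14 of the 49 were called lower and none higher, against 6.61% lower and 11.1% higher of all genes. With quantile normalization 13 were lower and none higher, against 12% and 11.3%. Without the warm female limma called none of 39 genes, and 0.0782% of all genes lower, although 20 of the 39 had an unadjusted p under 0.05. Without the warm male 13 of 39 were called lower (4.89% of all genes), and without the cold male 14 of 49 (9.28%). Without the cold female 38 were (39.1%). Without the cold female or the cold male of iBAT 19 were called (8.27% and 8.25% of all genes), and without the warm female or the warm male of iBAT 17 (9.13% and 9.07%). With only the 4 sWAT libraries in the fit limma called no gene at all, while 38 of the 49 and 34.3% of all genes had an unadjusted p under 0.05.

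Many genes that work beside these were also lower in cold mouse sWAT. Of 23 other replication genes 17 were called lower and none higher (median change −0.62), and 11 of the 16 that passed without the warm pair. Dbf4, the activator of Cdc7, changed by −1.10 ± 0.31, Pold1, the catalytic subunit of polymerase delta, by −1.02 ± 0.27, and Fen1, a flap nuclease, by −0.88 ± 0.26. All 6 nucleotide supply genes tested were lower, among them Dck, deoxycytidine kinase (−1.02 ± 0.20), Dut, which removes dUTP (−0.81 ± 0.22), and Tyms, thymidylate synthase (−0.57 ± 0.29). Of 31 other mitosis genes 28 were lower, and all 9 of those that passed without the warm pair. Smc4, the condensin core (−1.85 ± 0.31), Mki67, the proliferation antigen Ki-67 (−1.39 ± 0.23), Racgap1 (−1.33 ± 0.30) and Pttg1, the securin (−1.32 ± 0.38), were among them. Of 27 regulators of the cycle 10 were lower, including Myc (−1.39 ± 0.47) and Rbl1, a relative of the retinoblastoma protein (−0.91 ± 0.21). Of 6 inhibitors of cyclin-dependent kinases 2 were lower, Cdkn2d (−0.92 ± 0.26) and Cdkn1b (−0.58 ± 0.22), and the median of the list was 0.25.

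**Figure D2:**
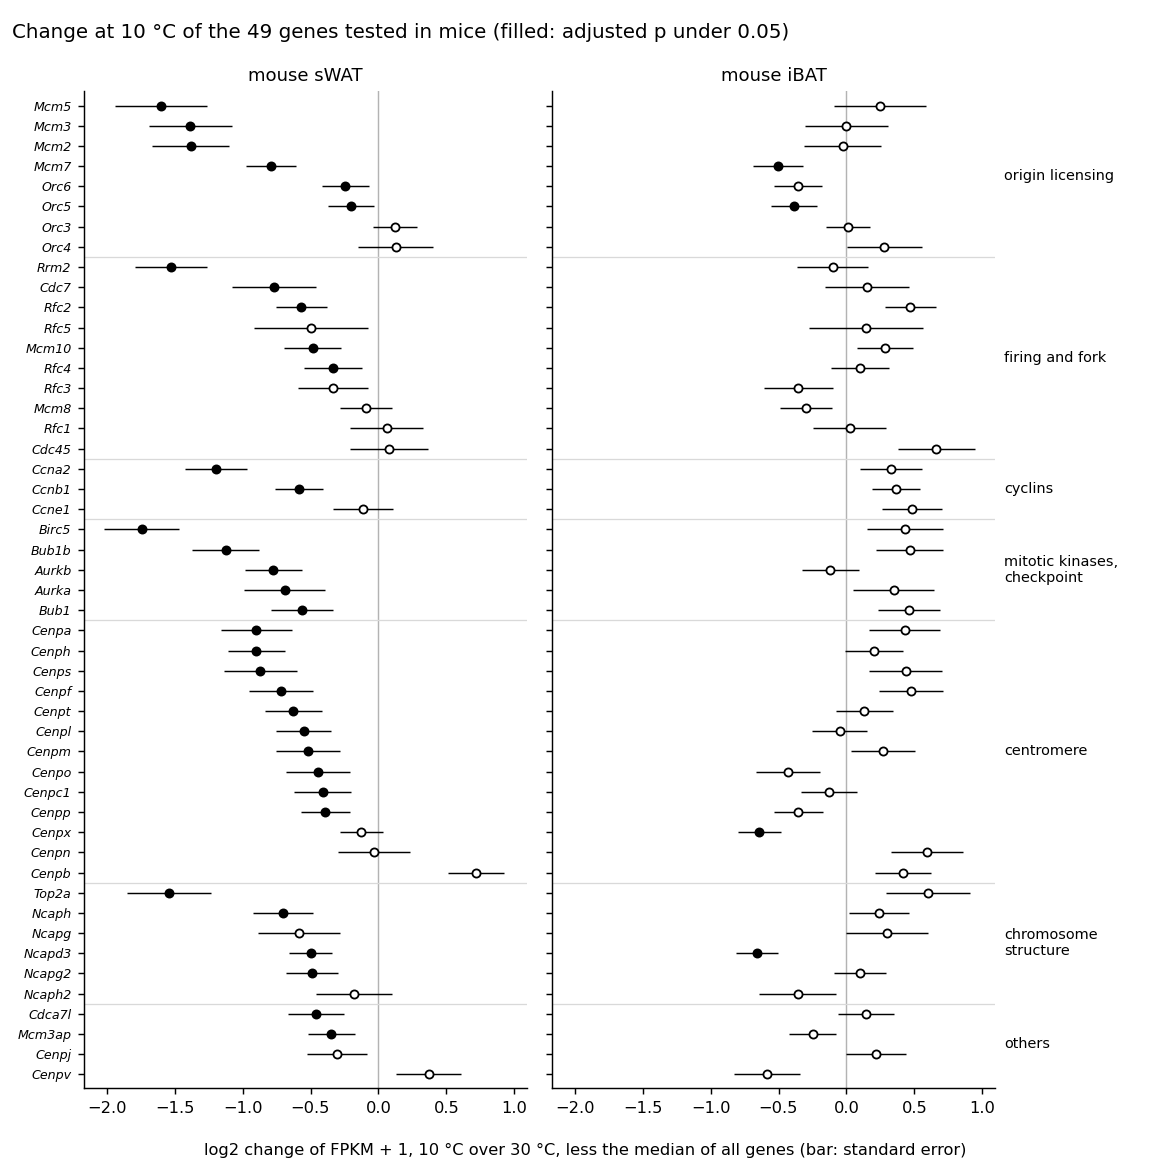
Change at 10 °C against 30 °C of the 49 genes tested in mice, in sWAT and in iBAT, grouped by role, as log2 of FPKM + 1 less the median of all genes. Points are changes, bars standard errors, and filled points are called; 34 points are filled in sWAT, all lower, and 4 in iBAT.

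Markers of lymphocytes moved with these genes. Of 10 B lymphocyte markers tested 4 were called lower in cold sWAT (median change −2.82), and of 11 T lymphocyte markers 8 were (median −2.80). All but 2 of the B and 1 of the T markers passed only through the warm pair, so they had to be lower elsewhere. Of those that passed without it 1 was called lower in each list. The B list summed to 258 and 8.62 FPKM in the cold female and male, against 673 and 602 FPKM in the warm ones. In iBAT it summed to 2.03 and 2.60 FPKM at 10 °C and 5.11 and 5.35 FPKM at 30 °C. The T list summed to 151 and 4.51 FPKM in cold and 449.6 and 479 FPKM in warm sWAT, and to 2.13 and 1.13 FPKM in cold and 4.51 and 4.32 FPKM in warm iBAT. The cold male thus stood near the iBAT libraries in both lists, and the cold female did not. Cd79a was at 55.3 and 0.74 FPKM in the cold female and male and Cd3e at 12.3 and 0.22 FPKM, so defining markers were near 0 in the cold male. Mcm2, Mcm3, Mcm5 and Mcm7 summed to 17.8 and 9.40 FPKM in cold and 57.1 and 45.1 FPKM in warm sWAT, and to 3.34 and 2.94 FPKM in cold and 5.76 and 5.30 FPKM in warm iBAT. Macrophage markers summed to 292 and 219 FPKM in cold and 431 and 346 FPKM in warm sWAT, with 2 of 9 called lower. Plasma cell markers summed to 132 and 44.7 FPKM in cold and 1433 and 204 FPKM in warm sWAT, with 3 of 7 called lower. Of the 5 that passed without the warm pair 1 was. Of 11 progenitor markers limma called none, with 2 at an unadjusted p under 0.05, at 1388 and 1110 FPKM in the cold and 1406 and 1300 FPKM in the warm. Germinal centre B cell markers summed to 41.4 and 53.1 FPKM in the cold and 57.1 and 49.7 FPKM in the warm, with 2 of 4 called lower. Of the 3 that passed without the warm pair 1 was. Muscle markers summed to 39.0 and 13.2 FPKM in the warm female and male, below the cold male named at the start. Epithelial markers, at 58.4 and 0.11 FPKM in the cold and 126 and 1.52 FPKM in the warm, were higher in the females. Other markers were called the other way: 8 of 10 brown fat cell markers were called higher in cold sWAT (median change 4.11), at 2685 and 5381 FPKM in the cold and 22.2 and 29.2 FPKM in the warm, as was 1 of 10 endothelial markers (median 0.64). The part of these cells in the fall was not tested.

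**Figure D3:**
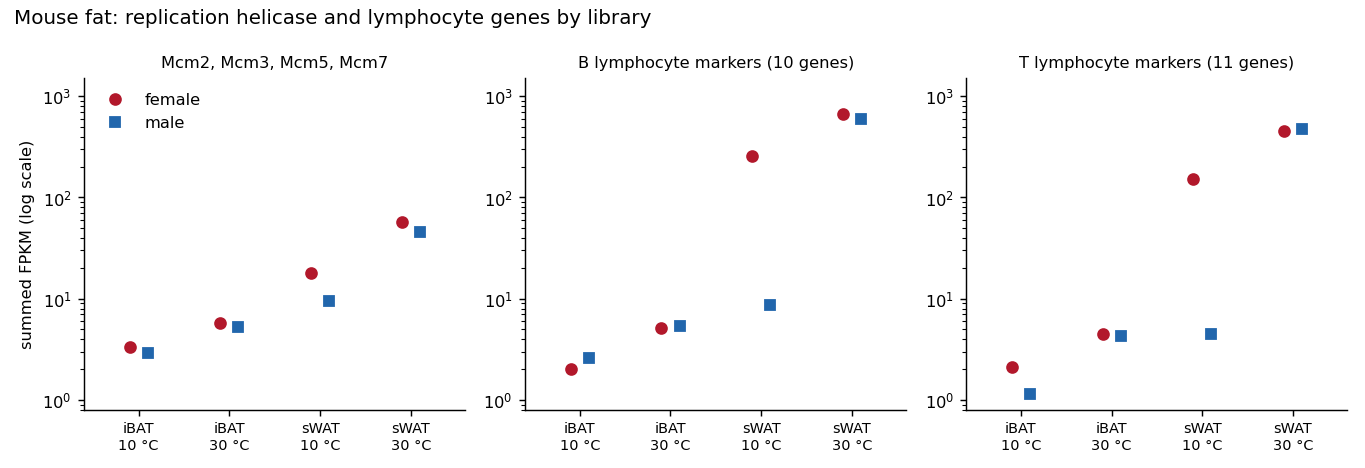
Summed FPKM, on a log scale, of the 4 Mcm genes and of the B and T lymphocyte lists in the 8 mouse libraries. In the cold male sWAT library the lymphocyte sums are 8.62 and 4.51 FPKM, near those of iBAT, while its Mcm sum of 9.40 FPKM lies above those of the iBAT libraries.

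In mouse iBAT 4 of the 49 genes were called lower in the cold and none higher, near the 11.2% lower and 2.84% higher of all genes. The median change of the 49 was 0.14. Over the 34 that passed without the warm sWAT pair it was 0.06, beside −0.03 over all such genes. The 4 were Ncapd3, Cenpx, Mcm7 and Orc5, all among the 34. Ncapd3 was at 2.64 and 2.39 FPKM at 10 °C, against 6.07 and 5.53 FPKM at 30 °C (−0.66 ± 0.16, limma adjusted p = 0.0183). Cenpx, a small histone-fold protein of the kinetochore and of DNA repair, was at 15.7 and 18.2 FPKM at 10 °C, against 36.8 and 30.1 FPKM at 30 °C (−0.64 ± 0.16, limma adjusted p = 0.0184). Mcm7 was at 1.12 and 0.77 FPKM at 10 °C, against 2.07 and 2.69 FPKM at 30 °C (−0.50 ± 0.18). Its neighbours Ap4m1 (0.44 ± 0.20) and Cops6 (−0.03 ± 0.13) were not called. Orc5 was the other gene called, at 7.32 and 6.38 FPKM at 10 °C and 12.6 and 10.6 FPKM at 30 °C (−0.39 ± 0.17), and in all 4 genes the groups did not overlap. Leaving out any 1 of the 4 iBAT libraries left 1 in its group, and the calls were then lost in these genes and in nearly all others. Leaving out a sWAT library instead also moved the number called. Median-ratio scaling called 1 lower and 0 higher, against 3.72% lower and 6.48% higher of all genes, and quantile normalization 1 lower and 0 higher, against 2.05% lower and 3.28% higher of all genes.

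Several genes that fell in sWAT were low in iBAT at both temperatures. Mcm5 was at 0.51 and 0.62 FPKM at 10 °C, against 0.89 and 0.38 FPKM at 30 °C (0.25 ± 0.34), and Birc5 at 1.03 and 0.37 FPKM, against 0.61 and 0.44 FPKM (0.43 ± 0.28), with overlap in both. Mcm2 was at 0.74 and 0.59 FPKM at 10 °C, against 1.10 and 1.07 FPKM at 30 °C (−0.03 ± 0.28). Rrm2 was at 0.25 and 0.30 FPKM at 10 °C, against 0.54 and 0.83 FPKM at 30 °C (−0.10 ± 0.26), and Aurkb at 0.23 and 0.43 FPKM, against 0.62 and 0.94 FPKM (−0.12 ± 0.21). For these 3 the cold libraries lay below the warm ones without a call. Cenpa was at 3.12 and 2.10 FPKM at 10 °C, against 3.14 and 1.57 FPKM at 30 °C (0.43 ± 0.26), and Cenpb at 63.4 and 77.2 FPKM, against 60.1 and 68.9 FPKM (0.42 ± 0.21). Rfc1 was at 5.11 and 2.73 FPKM at 10 °C, against 5.55 and 4.07 FPKM at 30 °C (0.02 ± 0.27), and in all 3 the groups overlapped. Ccna2 was at or under 0.32 FPKM in the 4 iBAT libraries and Cdca7l at or under 0.70 FPKM. Of the lists beside them, 4 of 23 replication genes were lower, including Rpa1, the large subunit of the protein that coats single-stranded DNA (−1.10 ± 0.20), and Pola2 of the primase complex (−0.78 ± 0.19). Limma called none of 31 mitosis genes, with 2 at an unadjusted p under 0.05. Myc (−1.67 ± 0.47) was called lower among 27 regulators, Rrm2b, a reductase subunit of resting cells (−0.58 ± 0.15), among 6 nucleotide genes, and Cdkn1b (−0.98 ± 0.22) among 6 inhibitors. Of the markers, 6 of 11 of progenitors (median change −0.61), 3 of 9 of macrophages and 3 of 10 of endothelium were called lower in cold iBAT, and 3 of 10 of brown fat cells higher. Progenitor markers summed to 125 and 119.8 FPKM in cold and 316 and 306 FPKM in warm iBAT, and the part of these cells was not tested.

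The difference between the depots in their response to the cold was tested directly. It was −2.19 ± 0.39 for Birc5 (sWAT minus iBAT, limma adjusted p = 0.0948), −2.17 ± 0.44 for Top2a (limma adjusted p = 0.0997), −1.87 ± 0.48 for Mcm5 and −1.38 ± 0.40 for Mcm2. Limma called none of the 49, when 0.0374% of all genes were called lower and 0.0561% higher. Of the 49, 23 had an unadjusted p under 0.05, as did 20.5% of all genes. But 15 of the 49, Top2a among them, passed only through the warm sWAT pair and had to be lower elsewhere. The filter thus favours a negative difference in these 15, and counts over the 49 are not read as support. Without the cold female sWAT library 12 of the 49 were called lower, when 10.2% of all genes were, and none without any other library. The median difference over the 34 genes that passed without the warm pair was −0.50, beside 0.05 over all such genes.

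Warm mouse iBAT held less of these transcripts than warm sWAT. Of the 34 genes that passed without the warm sWAT pair, 21 were called lower in iBAT and 1 higher, against 45.4% lower and 11.8% higher of all such genes. With the others 36 of 49 were lower and 1 higher, against 48% and 10.7% of all genes. The median change of all genes was −0.57 here, so some genes called lower lie near 0 once it is taken off, such as Cenpp (0.01). Median-ratio scaling called 25 of the 49 lower and 5 higher, against 21.8% and 22.8% of all genes. Quantile normalization called 18 lower and 5 higher, against 21.8% lower and 23.4% higher of all genes. Counts over the 49 include the 15 that passed only through the warm sWAT pair and had to be lower elsewhere. They are therefore not read as support. Without the warm sWAT female 16 of 39 were lower (30% of all genes), without the warm sWAT male 23 of 39 (39.5%), and without the warm iBAT male 23 of 49 (26.4%).

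Mcm5 was at 0.89 and 0.38 FPKM in warm iBAT, against 16.5 and 11.3 FPKM in warm sWAT (−2.61 ± 0.34, limma adjusted p = 0.00148). Birc5 was at 0.61 and 0.44 FPKM in iBAT, against 15.2 and 9.85 FPKM in sWAT (−2.55 ± 0.28, limma adjusted p = 0.00122). Top2a was at 0.13 and 0.01 FPKM in iBAT, against 9.89 and 6.38 FPKM in sWAT (−2.50 ± 0.31). Mcm3 (−2.30 ± 0.30), Mcm2 (−2.13 ± 0.28), Ccna2 (−1.66 ± 0.23), Rrm2 (−1.65 ± 0.26) and Cdca7l (−1.59 ± 0.21) followed, and in all 8 the groups did not overlap, though Top2a and Ccna2 passed only through the warm sWAT pair. Cenpv, a centromere protein that also acts on microtubules, was the gene called higher. It was at 24.0 and 20.8 FPKM in iBAT, against 10.1 and 14.2 FPKM in sWAT (1.42 ± 0.24, limma adjusted p = 0.0224). Orc3 was at 10.8 and 10.6 FPKM in iBAT, against 10.5 and 9.43 FPKM in sWAT (0.66 ± 0.16), and Ncapd3 at 6.07 and 5.53 FPKM, against 6.28 and 5.61 FPKM (0.54 ± 0.16). Neither was called. All 9 mitosis genes of the list that passed without the warm pair were lower in iBAT, as were 12 of 16 replication genes. The lymphocyte lists were lower in iBAT as well, at the sums given above. All but 2 of 10 B and 1 of 11 T markers passed only through the warm pair and had to be lower elsewhere. Called lower in iBAT were 9 of 9 macrophage and 9 of 11 progenitor markers, with 1 progenitor marker called higher. Of 10 endothelial markers 5 were called higher and 1 lower, and of 10 brown fat cell markers 8 were called higher. The part of these cells in this difference was not tested.

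At 10 °C fewer genes differed between the depots. In iBAT 9 of 49 were called lower than in sWAT and none higher, against 27.6% lower and 2.32% higher of all genes. All 9 were among the 34 genes that passed without the warm sWAT pair. The other 15 did not reach 1 FPKM in 2 libraries outside that pair, which holds down the share over the 49. The median change of the 34 was −0.002, beside 0.02 over all genes that passed in the same way. The 9 were Cdca7l, Mcm3, Mcm2, Mcm5, Cenpt, Mcm7, Orc6, Rfc2 and Cenpx, of which 5 are licensing genes. Among their opposite-strand neighbours, Lat2 beside Rfc2 changed by −1.03 ± 0.48 and Vps35 beside Orc6 by 0.26 ± 0.14. Beside Mcm7, Ap4m1 changed by 0.49 ± 0.20 and Cops6 by 0.26 ± 0.13, and none of these neighbours was called. Cdca7l was at 0.33 and 0.61 FPKM in iBAT, against 3.47 and 2.79 FPKM in sWAT (−1.03 ± 0.21, limma adjusted p = 0.00628). Mcm3 was at 0.96 and 0.96 FPKM in iBAT, against 6.23 and 2.83 FPKM in sWAT (−0.96 ± 0.30, limma adjusted p = 0.02). Cenpt was at 0.69 and 0.71 FPKM in iBAT, against 3.21 and 2.00 FPKM in sWAT (−0.60 ± 0.21). In these 3, as in Mcm2 (−0.82 ± 0.28) and Mcm5 (−0.80 ± 0.34), the groups did not overlap. Birc5 was at 1.03 and 0.37 FPKM in iBAT, against 2.30 and 1.86 FPKM in sWAT (−0.42 ± 0.28, limma adjusted p = 0.0525), and Top2a at 0.22 and 0.43 FPKM, against 2.09 and 0.85 FPKM (−0.39 ± 0.31, limma adjusted p = 0.075), and neither was called. Median-ratio scaling called 5 lower and 1 higher, against 9.41% lower and 12.2% higher of all genes. Quantile normalization called 1 lower and 2 higher, against 5.7% lower and 7.17% higher of all genes. Without the cold iBAT female limma called none, with 14 at an unadjusted p under 0.05 (4.61% of all genes were lower), and without the cold iBAT male 1 (3.22%). Without the cold sWAT female 5 were called lower (14.4% of all genes) and without the cold sWAT male 16 (41.9%).

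Few of these genes were called with temperature in the bats. Median changes over the 36 genes tested were −0.01 in iBAT, 0.01 in aWAT and −0.06 in sWAT. In bat iBAT 2 were called higher, Rrm2 and Cenpx, and 2 lower, Cdca7l and Mcm7, against 1.22% higher and 0.98% lower of all genes. In bat aWAT Rrm2 and Cenpx were called higher, against 8.66% of all genes, and Rfc4, Mcm7 and Rfc1 lower, against 6.67%. In bat sWAT limma called none, when 0.943% of all genes were called higher and 0.0726% lower, and 3 of the 36 had an unadjusted p under 0.05, as did 10.5% of all genes. Without the cold sWAT female 1 was called lower. The iBAT calls rested on all 4 iBAT libraries. Without the cold female, the cold male or the warm female limma called none, with 7 to 8 at an unadjusted p under 0.05, and without the warm male 1. In aWAT 1 gene was called without the cold female (4.25% of all genes), 2 without the warm female (4.82%), 3 without the warm male (12.5%) and 7 without the cold male (16.2%).

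Rrm2 rose in the cold in bat iBAT and aWAT. It was at 3.70 and 7.17 FPKM in iBAT at 10 °C, in the female and the male, against 0.41 and 0.85 FPKM at 30 °C (2.04 ± 0.33, limma adjusted p = 0.0215). In aWAT it was at 2.48 and 4.62 FPKM at 10 °C, against 0.77 and 0.22 FPKM at 30 °C (1.73 ± 0.33, limma adjusted p = 0.0116). In sWAT it was at 0.25 and 0.44 FPKM at 10 °C, against 0.24 and 0.11 FPKM at 30 °C (0.12 ± 0.33). In iBAT and aWAT both cold libraries exceeded both warm ones, and the cold male was higher than the cold female. Cenpx rose in the same depots. It was at 51.8 and 46.6 FPKM in iBAT at 10 °C, against 19.8 and 23.8 FPKM at 30 °C (1.24 ± 0.22, limma adjusted p = 0.0341). In aWAT it was at 54.9 and 44.5 FPKM at 10 °C, against 18.9 and 29.8 FPKM at 30 °C (1.16 ± 0.22, limma adjusted p = 0.0132). In sWAT it lay between 23.2 and 27.1 FPKM in all 4 libraries (0.05 ± 0.22). Neither gene shares exons with another gene in the mouse annotation.

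Few other S-phase or mitotic genes were called beside Rrm2 in the bat. Ccna2 was at 5.60 and 4.02 FPKM in iBAT at 10 °C, against 0.22 and 1.90 FPKM at 30 °C (1.71 ± 0.52, limma adjusted p = 0.138, not called). In aWAT it was at 4.39 and 1.05 FPKM at 10 °C, against 0 and 0.23 FPKM at 30 °C (1.72 ± 0.52, limma adjusted p = 0.0682, not called). In both depots its cold libraries lay above its warm ones, while Exosc9, which overlaps it, was at 12.1 and 13.2 FPKM at 10 °C in iBAT and 11.2 and 11.4 FPKM at 30 °C. Birc5 was at 0.52 and 0.28 FPKM in iBAT at 10 °C, against 1.14 and 3.42 FPKM at 30 °C (−1.04 ± 0.32, limma adjusted p = 0.0963), and was not called. Mcm2 was at 1.00 and 0.63 FPKM in iBAT at 10 °C, against 0.54 and 1.19 FPKM at 30 °C (0.07 ± 0.26), and Mcm3 at 1.73 and 1.48 FPKM, against 0.99 and 1.61 FPKM (0.29 ± 0.23), with overlap in both. Top2a was at or under 0.51 FPKM, Ccnb1 at or under 0.60 FPKM and Aurkb at or under 0.48 FPKM in all 12 bat libraries, and these genes were not tested there.

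Mcm7 fell in both depots in which Rrm2 rose. It was at 5.29 and 7.08 FPKM in iBAT at 10 °C, against 17.6 and 16.0 FPKM at 30 °C (−1.22 ± 0.26, limma adjusted p = 0.0392). In aWAT it was at 5.71 and 7.81 FPKM at 10 °C, against 20.2 and 12.0 FPKM at 30 °C (−0.97 ± 0.26, limma adjusted p = 0.021). In sWAT it was at 9.67 and 9.31 FPKM at 10 °C, against 17.0 and 12.2 FPKM at 30 °C (−0.63 ± 0.26, not called). The groups did not overlap in any of the 3 depots. Its opposite-strand neighbours were not called in bat iBAT, with changes of −0.58 ± 0.22 for Ap4m1 and 0.28 ± 0.20 for Cops6, nor in aWAT. Cdca7l was listed at 0 in both bat iBAT libraries at 10 °C, against 18.9 and 6.35 FPKM at 30 °C (limma adjusted p = 0.0255). In aWAT it was at 8.02 and 27.4 FPKM at 10 °C, against 39.2 and 18.6 FPKM at 30 °C (−0.67 ± 0.64), and in sWAT at 5.76 and 15.7 FPKM, against 30.5 and 23.9 FPKM (−1.47 ± 0.64). The aWAT groups overlapped and the sWAT groups did not, and neither comparison was called. Its opposite-strand neighbour Dnah11 was at or under 0.07 FPKM in every library of both species.

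The clamp loader subunits Rfc4 and Rfc1 both fell in bat aWAT. Rfc4 was at 9.69 and 11.7 FPKM at 10 °C, against 48.2 and 50.2 FPKM at 30 °C (−1.97 ± 0.37, limma adjusted p = 0.00542). In iBAT it was at 4.17 and 3.26 FPKM at 10 °C, against 10.6 and 14.3 FPKM at 30 °C (−1.40 ± 0.37, limma adjusted p = 0.0669). In sWAT it was at 27.3 and 9.93 FPKM at 10 °C, against 61.9 and 47.1 FPKM at 30 °C (−1.71 ± 0.37, limma adjusted p = 0.0905). The groups did not overlap in any depot, and the call was made in aWAT alone; the difference between depots was not tested. Eif4a2, a translation helicase whose exons overlap those of Rfc4 on the opposite strand, was at 25.2 and 32.5 FPKM in aWAT at 10 °C, against 78.7 and 58.7 FPKM at 30 °C (−1.09 ± 0.26, limma adjusted p = 0.0132). In iBAT it was called lower too (−1.23 ± 0.26, limma adjusted p = 0.0367), and the reads of this pair cannot be told apart. Rfc1 was at 7.95 and 11.1 FPKM in aWAT at 10 °C, against 17.9 and 19.2 FPKM at 30 °C (−0.77 ± 0.22, limma adjusted p = 0.0207), and was not called in iBAT (−0.59 ± 0.22) or sWAT (−0.53 ± 0.22). Rfc2 (−0.14 ± 0.16), Rfc3 (0.55 ± 0.43) and Rfc5 (−0.01 ± 0.21) were not called in aWAT.

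**Figure D4:**
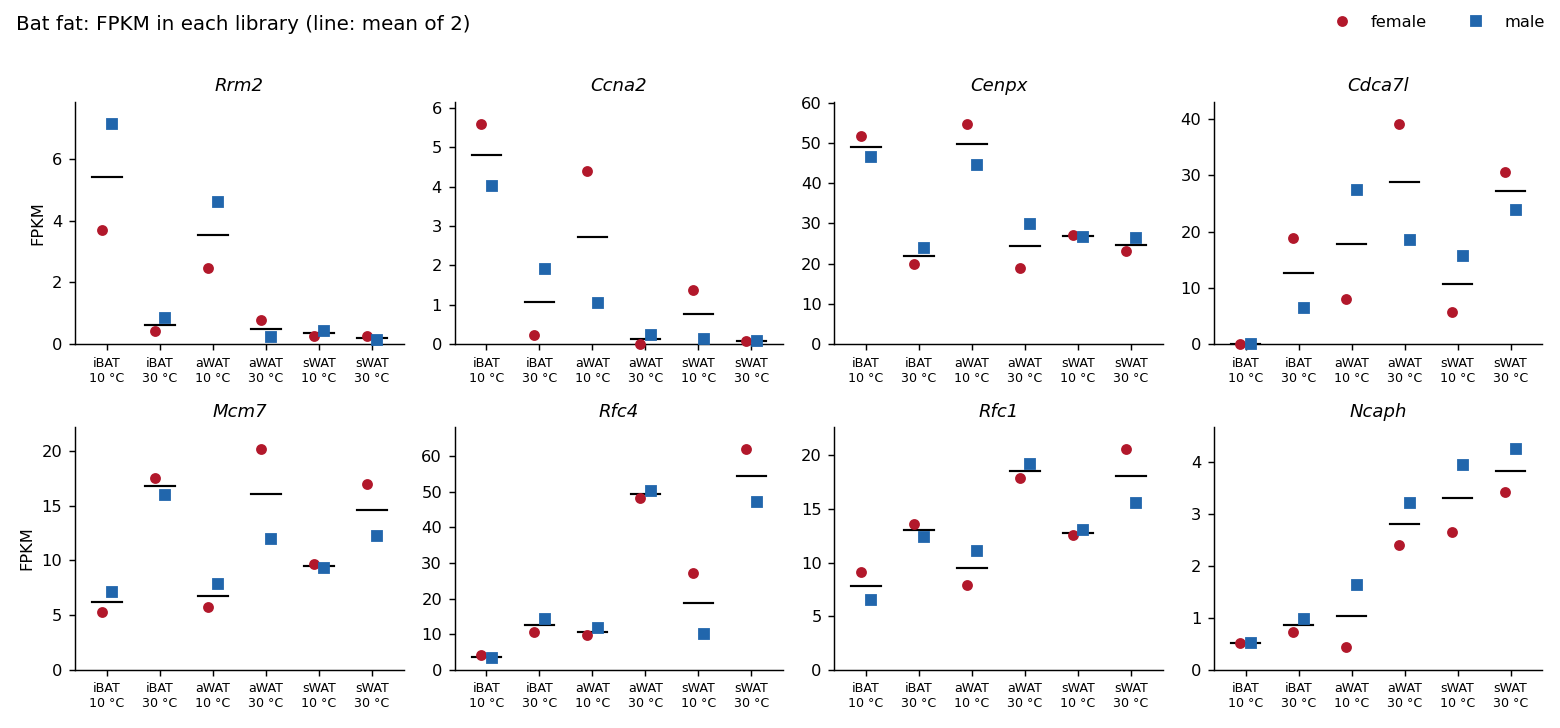
FPKM of 8 genes in the 12 bat libraries, with circles for females, squares for males and a line at the mean of 2. Rrm2 and Cenpx stand highest in cold iBAT and cold aWAT, Cdca7l is at 0 in cold iBAT, and Rfc4 reaches 47.1 FPKM or more in the warm white depots and less elsewhere.

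Cenpb lay between 25.8 and 40.6 FPKM in all 12 libraries and Orc4 between 11.4 and 17.8 FPKM. Aurkc, an aurora kinase known from meiosis in the mouse, lay between 1.53 and 3.13 FPKM, and as aurora kinases are close relatives its reads may be shared. Cenpn, which binds the centromeric nucleosome, ranged widely within groups, with 0.79 and 7.77 FPKM in the warm aWAT female and male. Of 17 other replication genes 2 were called lower in bat aWAT, Gmnn, an inhibitor of licensing (−0.85 ± 0.21), and Lig1, a DNA ligase (−0.55 ± 0.19). Of 18 mitosis genes 2 were higher, Espl1, the protease that cuts cohesin (1.53 ± 0.32), and Incenp, a scaffold of the passenger complex (0.81 ± 0.18). Of 6 nucleotide genes Dtymk, thymidylate kinase, was lower (−0.68 ± 0.17). Of 22 regulators Lin52 (1.19 ± 0.24) and Ccnd1, cyclin D1 (1.01 ± 0.26), were higher and Chek2 (−0.90 ± 0.23) lower, and of 6 inhibitors Cdkn1c (−0.92 ± 0.31) and Cdkn1b (−0.79 ± 0.26) were lower. In bat iBAT Lin52 (1.22 ± 0.24) was the gene called among these lists, and in sWAT limma called none of them. At an unadjusted p under 0.05 in sWAT were 1 replication, 0 nucleotide and 0 mitosis genes, 2 regulators and 1 inhibitor. Macrophage markers summed to 154 and 289.6 FPKM in cold and 452 and 274 FPKM in warm aWAT, and progenitor markers to 661 and 1207 FPKM in cold and 1322 and 2053 FPKM in warm aWAT. Brown fat cell markers summed to 9720 and 5501 FPKM in cold and 449 and 1030 FPKM in warm aWAT, with 6 of 9 called higher. Of endothelial markers 3 of 10 were called lower in cold aWAT (median change −0.56), and of macrophage and progenitor markers 1 of 9 and 1 of 10. Muscle markers, at 334 and 674 FPKM in cold and 15.5 and 4.18 FPKM in warm sWAT, were higher in the cold, with 8 of 9 called. The part of these cells in the bat results was not tested.

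**Figure D5:**
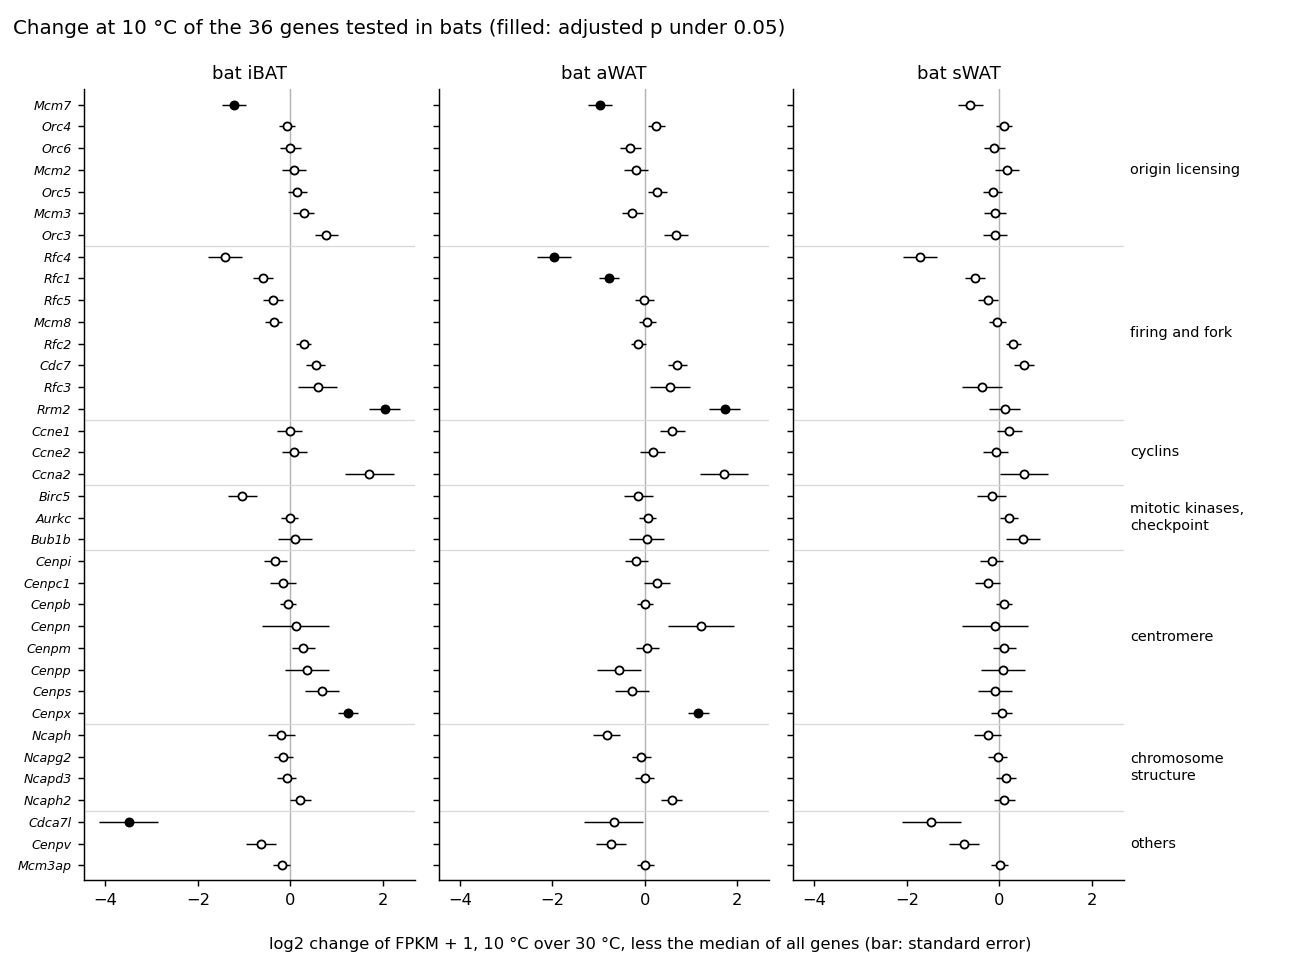
Change at 10 °C against 30 °C of the 36 genes tested in bats, in iBAT, aWAT and sWAT, grouped by role, as log2 of FPKM + 1 less the median of all genes. Points are changes, bars standard errors, and filled points are called; 4 are filled in iBAT, 5 in aWAT and none in sWAT.

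Between warm bat depots 2 genes differed. Rfc4 was at 10.6 and 14.3 FPKM in iBAT, against 61.9 and 47.1 FPKM in sWAT (−1.98 ± 0.37, limma adjusted p = 0.00325), and against 48.2 and 50.2 FPKM in aWAT (−1.76 ± 0.37, limma adjusted p = 0.00622). Its opposite-strand neighbour Eif4a2 was not called against sWAT (0.67 ± 0.26) or aWAT (0.21 ± 0.26). Ncaph, a condensin subunit, was at 0.73 and 0.97 FPKM in iBAT, against 3.42 and 4.24 FPKM in sWAT (−1.31 ± 0.29, limma adjusted p = 0.00729), and against 2.40 and 3.22 FPKM in aWAT (−0.88 ± 0.29, limma adjusted p = 0.032). In neither Rfc4 nor Ncaph did the iBAT libraries overlap with those of the white depots. These 2 of 36 stand against 13% of all genes called lower in iBAT than in sWAT and 12.6% in iBAT than in aWAT, and none was called higher, against 11% and 7.66%. Quantile normalization called 3 lower and 1 higher in iBAT than in sWAT, against 12.2% lower and 12.3% higher of all genes. Between iBAT and aWAT it called 1 lower and 1 higher, against 9.81% lower and 10% higher of all genes. Median-ratio scaling called 2 lower and 1 higher in iBAT than in sWAT, against 11.8% lower and 12.3% higher of all genes. Against aWAT 1 gene was called without either warm aWAT library or without the warm iBAT female. Between aWAT and sWAT limma called none, when 0.662% of all genes were higher and 0.227% lower, and none of the 36 had an unadjusted p under 0.05. Mcm2 was at 0.54 and 1.19 FPKM in warm bat iBAT, against 1.65 and 1.58 FPKM in sWAT (−0.44 ± 0.26), and Mcm3 at 0.99 and 1.61 FPKM, against 2.22 and 2.20 FPKM (−0.42 ± 0.23), and neither was called.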

How the data were processed

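The deposited values are FPKM per gene in 20 libraries, and CASAVA 1.8 is the tool in the submitters' processing notes. No source used here names the aligner, the build, the use of strand or how reads of the bat came to stand under mouse identifiers. A check of the values showed fractions and no logarithms. Of the identifiers 14723 had a symbol and 148 had none. The genes, lists and roles were chosen with earlier results of these data known. log2(FPKM + 1) was fitted with limma 3.58.1 in R 4.3.3, with 1 mean per group, a variance trend, and all 8 mouse or 12 bat libraries sharing a spread (4 and 6 residual degrees of freedom). Genes given library by library, in the comparisons that turn on them, are Mcm5, Mcm2, Top2a, Birc5, Rrm2, Ccnb1, Ccna2, Aurkb, Cenpa, Cenpb, Rfc1, Cdca7l and up to 5 called genes in each direction; further ones were added after their values were seen. A permutation test of 2 against 2 cannot reach 0.05 and was not used. Exon overlaps are from GENCODE M21 on GRCm38. The fit was tested on simulated data. The alternatives were median-ratio scaling, quantile normalization, rescaling without the 10 highest genes, a pseudocount of 0.1, no filter, no variance trend, the compared groups alone, sex as a block, and each library left out.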

Additional observations from a re-analysis of the deposited data

Results flagged for a closer look

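In Top2a and Ccnb1 both cold libraries lay below both warm ones in mouse sWAT and above them in mouse iBAT, but neither gene was called in iBAT and both passed only through the warm sWAT pair. The change of Top2a was −1.54 in sWAT and 0.60 in iBAT, where it was at 0.22 and 0.43 FPKM at 10 °C, against 0.13 and 0.01 FPKM at 30 °C. The change of Ccnb1 was −0.58 in sWAT and 0.36 in iBAT, where it was at 0.10 and 0.12 FPKM at 10 °C, against 0.10 and 0.03 FPKM at 30 °C, and most of its iBAT value is the median of all genes, −0.30, that was taken off. The test of the difference between the depots did not pass for Top2a (limma adjusted p = 0.0997) or Ccnb1 (limma adjusted p = 0.126), and both iBAT levels are under the 1 FPKM of the filter.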

How the results depend on the processing

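Counts are of genes called in either direction. The share of all genes called moved too in mice. In sWAT it went from 33.9% to 17.7% with median-ratio scaling, 23.3% with quantile normalization and 0% with the compared groups alone. In iBAT it went from 14.1% to 10.2%, 5.33% and 27.1% in the same order. Between depots at 30 °C quantile normalization took it from 58.7% to 45.2%. At 10 °C it took it from 29.9% to 12.9%. There it was 34.8% with a pseudocount of 0.1 and 8.48% with those groups alone. In mouse sWAT, 10 °C against 30 °C, 34 became 14 with median-ratio scaling, 13 with quantile normalization and 0 with the compared groups alone, and 0 to 38 with 1 library left out. In mouse iBAT 4 became 1 with median-ratio scaling, 1 with quantile normalization, 9 with the compared groups alone and 7 with sex as a replicate block, and 0 to 8 with 1 library left out. For iBAT against sWAT in mice at 30 °C 37 became 23 with quantile normalization and 16 to 39 with 1 library left out. At 10 °C 9 became 3 with quantile normalization, 16 with a pseudocount of 0.1 and 1 with the compared groups alone, and 0 to 16 with 1 library left out. The difference of the depots' cold response gave 0 to 12. In bat iBAT 4 became 2 with quantile normalization or no filter and 0 with the compared groups alone, and 0 to 4 with 1 library left out. In bat aWAT 5 became 1 with the compared groups alone, and 1 to 7 with 1 library left out, and in bat sWAT 0 became 0 to 1. For bat iBAT against sWAT 2 became 4 with quantile normalization or without the 10 highest genes, and 2 to 3 with 1 library left out, and against aWAT 1 to 3. For Rfc1, not called between warm mouse depots, median-ratio scaling and quantile normalization reversed the sign of the change before the median was taken off. Less the median the change was 0.0297 with the former and 0.0832 with the latter. The cause was not tested in any of these. Sex was left out of the main fit, though deviations of same-sex libraries correlated at −0.02 to 0.47 in mice and −0.19 to 0.55 in bats. Over 0.1 were 4 of 6 pairs of groups in mice and 6 of 15 in bats. With sex as a block the share of all genes called rose from 14.1% to 20.3% in mouse iBAT. In mouse sWAT it rose from 33.9% to 41.5%. The block moved no other count of these genes by over 1.5 times. Depth is relative only, so no counting interval could be given.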
